A study of Mus musculus with 3 samples.

Results

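The messenger RNA of mouse dendritic cells kept for 48 h with recombinant articulatin B chain (rATB) was compared with that of the same kind of cells kept with buffer. The comparison used 2 of the 3 libraries of the series, chosen by their labels, and covered every gene with a symbol. Of 34590 symbols, 12554 had a mean of at least 1 unit over both libraries and are called measured. The series' title and design text give its question as the effect of rATB on mRNA levels in these cells.

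Per the labels, primary bone marrow cells were grown in GM-CSF, the growth factor granulocyte-macrophage colony-stimulating factor. Cells that did not adhere were taken on day 6. The rATB library came from cells given 800 ng/ml of the protein, the buffer library from cells given buffer, and the control library from cells with no addition, each for 48 h. For buffer the labels give a dose of 1 ng/ml, and what this refers to is not clear. Mouse strain, age, sex and the number of animals are not in the labels used here, nor is it said whether animals were pooled. Every group held 1 library, so no difference has a replicate check, no test could be made and p-values are not given. Total reads were 17776492 in the control, 16105080 with buffer and 15203139 with rATB. Levels are given in units: 1 unit is a scaled read count equal to 1 in 1000000 of the control library's reads. Units are not divided by gene length. Each ratio is followed by its exact conditional (Clopper-Pearson) 95% interval from the read counts. The intervals cover counting error only, and not variation between animals, cultures or library preparations. PCR copies without molecular identifiers are not independent molecules, so the intervals may be too narrow even for counting error.

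Articulatin is a plant toxin of the mistletoe family, in which an enzymatic A chain inactivates ribosomes and a B chain is a lectin that binds sugars on the cell surface. Dendritic cells take up antigen, cut it in their lysosomes with proteases such as the cathepsins, and show the peptides to T cells on class II MHC molecules. When they mature they usually take up less, carry more co-stimulatory ligands and follow the receptor Ccr7 to lymph nodes. GM-CSF cultures of bone marrow hold dendritic cells together with cells that resemble macrophages.

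The labelled cell type was checked with marker genes. All 9 dendritic cell markers had reads, and their summed levels were 4705, 4388 and 4094 units in the control, buffer and rATB libraries. The single markers split between rATB and buffer at 1.3-fold beyond counting error. With rATB 2 were higher, Flt3 and Ccr7, and 3 were lower, Cd209a, Dpp4 and H2-Aa. Over all measured genes 7.26% were higher and 8.16% lower in this way. Itgax, the integrin subunit CD11c, stood at 1200.0, 1213 and 981 units in the same order, and Zbtb46, a transcription factor of conventional dendritic cells, at 35.1, 38.1 and 38.8 units. Macrophage or monocyte markers were present as well, 11 of 11 with reads and summed levels of 5384, 4237 and 3501 units. Csf1r had more reads than any other of them. Of the 10 that were measured, 5 were lower with rATB and 0 higher, beside the same shares over all genes. Markers of T, B, NK and erythroid cells and of fibroblasts were near 0, and Cd3e, Ms4a1, Pax5, Ncr1 and Col1a2 had no reads in any library. Neutrophil markers summed to 57.9, 44.5 and 44.2 units. In these bulk libraries, fewer cells of a type and less RNA per cell cannot be told apart.

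The rATB and buffer libraries differed in many genes by small amounts. A gene is called higher or lower where its ratio was at least 1.3 in that direction and the interval excluded 1. By this rule 912 of the 12554 measured genes were higher with rATB (7.26%) and 1025 were lower (8.16%). At 2-fold or more, 203 were higher (1.62%) and 182 lower (1.45%). At any size beyond counting error, 2473 were higher (19.7%) and 2507 lower (20%). Between buffer and control, 216 of 12556 genes were higher with buffer by the 1.3-fold rule (1.72%) and 365 lower (2.91%), or 27 (0.215%) and 41 (0.327%) at 2-fold. At 1.3-fold that split depended on scaling, since 365 were higher and 209 lower when each library was scaled to its own total. At any size, 710 were higher with buffer than in the control (5.65%) and 2744 lower (21.9%). The median log2 ratio of all measured genes was -0.00 for rATB against buffer and -0.05 for buffer against control. Both sets of ratios share the buffer library, so a gene that happened to be low there is raised in the first and lowered in the second, and the control level is given beside each result.

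**Figure D1:**
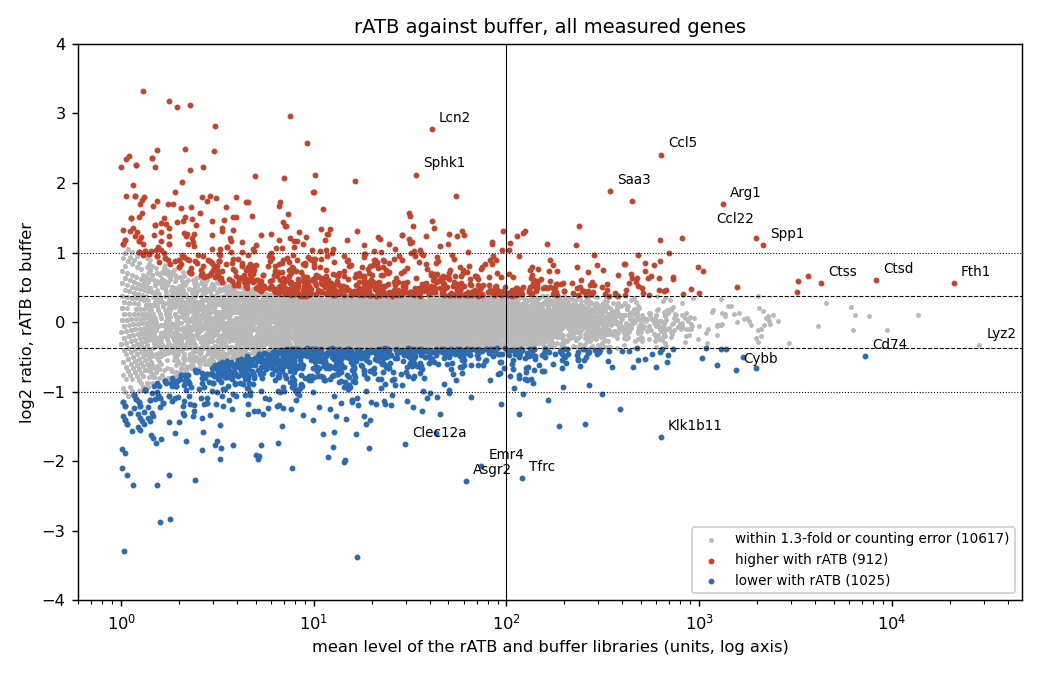
Each point is 1 of the 12554 measured genes, with the mean level of the rATB and buffer libraries on a log axis and the log2 ratio of rATB to buffer. Red points (912) were higher and blue points (1025) lower by at least 1.3-fold beyond counting error. Dashed lines mark 1.3-fold, dotted lines 2-fold and the vertical line 100 units, and 2 points lie beyond the axis.

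Among abundant genes most of the shifts were moderate. Of 1998 genes whose mean reached 100 units, 134 were higher by 1.3 to 2-fold (6.71%) and 104 were lower by that much (5.21%), while 16 were higher (0.801%) and 9 lower (0.45%) by at least 2-fold. Between buffer and control, 3 of 2044 abundant genes were higher by 1.3 to 2-fold (0.147%) and 33 lower (1.61%), or 13 and 17 with each library scaled to its own total. The 90% of abundant genes in the middle of the distribution lay between log2 ratios of -0.39 and 0.46 for rATB against buffer, and between -0.26 and 0.11 for buffer against control. The moderate genes rested on many reads: the least covered had 1349 reads in either library among the higher and 1177 among the lower. They also made up much of the summed differences. The gains of all genes summed to 84513 units, of which the 134 moderately higher abundant genes gave 38.2% and the 16 at least 2-fold higher gave 9.90%. The losses summed to 61246 units, of which the 104 moderately lower genes gave 23.0% and the 9 at least 2-fold lower gave 3.38%.

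**Figure D2:**
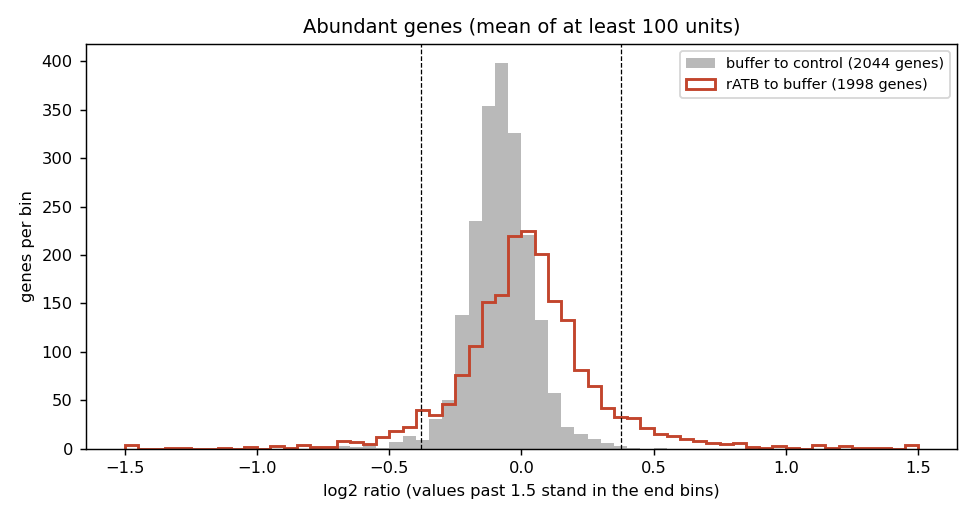
Number of abundant genes (mean of at least 100 units) by log2 ratio, in bins, for rATB to buffer (red line, 1998 genes) and buffer to control (grey, 2044 genes). Dashed lines mark 1.3-fold. The red distribution is the wider, with 86.8% of genes within 1.3-fold against 98.2% for the grey.

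Iron handling held both the largest gain in units and a gene among the lowest ratios. Cells store iron in ferritin and import it through the transferrin receptor, and iron regulatory proteins bind a short hairpin in the messages of both. Fth1 (ENSMUSG00000024661), the ferritin heavy chain, stood at 17759.9 units in the control, 16881 with buffer and 24970.3 with rATB, a ratio to buffer of 1.48 (interval 1.47 to 1.49). Tfrc (ENSMUSG00000022797), the transferrin receptor, stood at 189.6 units in the control, 198 with buffer and 41.7 with rATB, and the buffer level was 4.75 (interval 4.37 to 5.17) times the rATB level. For both genes the control and buffer levels lay close together and the rATB level stood apart. Ftl1, the ferritin light chain, was at 1682, 1571 and 1575 units, so it did not differ from buffer beyond counting error. The hairpins are shown because these messages carry them: the loop letters CAGTGN are in capitals, each preceded by the unpaired C and stem that were required, in GENCODE M21 transcripts of build GRCm38 (Fth1 on chromosome 19, Ftl1 on chromosome 7, Tfrc on chromosome 16).
Fth1, 5′ UTR: cctgcttcaaCAGTGCttgaa
Ftl1, 5′ UTR: cttgcttcaaCAGTGTttgaa
Tfrc, 3′ UTR, first match: atatcggagaCAGTGAtctcc
Tfrc, 3′ UTR, another match: ttatcggaagCAGTGCcttcc
The Tfrc matches shown are in the order of their letters, so "first" does not give a position along the UTR. Of 10290 measured protein-coding genes searched on the message strand, 107 held such a match in a UTR (1.04%), and Tfrc held 4. A match is a description of the letters and not a measurement of binding. Hmox1, the haem oxygenase that frees iron from haem, stood at 266, 236 and 399 units in the control, buffer and rATB libraries. Lcn2, which binds bacterial iron carriers, stood at 11.9, 10.4 and 71.2 units. Over the 22 measured iron genes, 4 were higher and 4 lower by the 1.3-fold rule, against 7.26% and 8.16% of all genes. The median log2 ratio was 0.03, so the list as a whole was not shifted in either direction.

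Several genes of the lysosome were higher with rATB, among them 4 cathepsins of the 10 largest gains. Ctsd, the aspartic protease cathepsin D, stood at 7908 units in the control, 6588 with buffer and 10017 with rATB, a ratio of 1.52 (interval 1.51 to 1.53). Ctsl, the cysteine protease cathepsin L, stood at 2852 units in the control, 2845 with buffer and 4506 with rATB, a ratio of 1.58 (interval 1.57 to 1.6). Ctss, the cathepsin that trims the class II invariant chain, stood at 3777 units in the control, 3481 with buffer and 5150.4 with rATB, a ratio of 1.48 (interval 1.46 to 1.5). For these 3 proteases the rATB level was above both other libraries. Ctsb, cathepsin B, was at 3251, 2735 and 3695 units, and there the control lay nearer to the rATB level, which exceeded buffer by a ratio of 1.35 (interval 1.33 to 1.37). Acp5, the tartrate-resistant acid phosphatase also known from osteoclasts, was at 376, 329 and 638 units, and Ctsk, cathepsin K, at 24.3, 20.1 and 37.3 units. Psap, the precursor of the saposins that help to degrade sphingolipids, was at 16126, 13225 and 14244 units, so its rATB level lay between the control and buffer levels. Over the 49 measured lysosomal genes, 12 were higher and 3 lower by the 1.3-fold rule, against 7.26% and 8.16% of all genes. At any size beyond counting error 34 were higher and 6 lower, against 19.7% and 20% of all genes. The median was 0.19, just under the 0.2 from the all-gene median at which a list is called shifted. Buffer itself lay below the control, with a median of -0.18, and the summed level was 55226 units in the control, 47399.9 with buffer and 58413 with rATB. Of the subunits of the V-ATPase, the pump that acidifies lysosomes, 0 of 19 passed 1.3-fold in either direction, with a median of 0.15. Beyond counting error at any size, 9 of these subunits were higher and 2 lower. Of 28 autophagy genes, 1 was higher and 0 were lower.

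**Figure D3:**
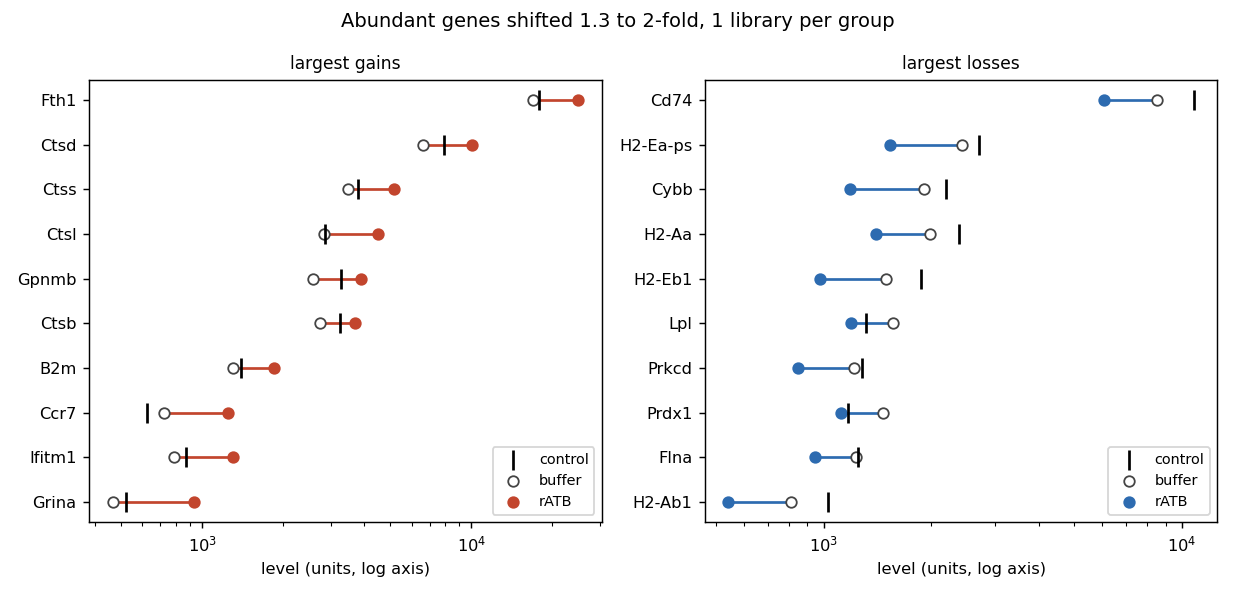
Levels in units (log axis) of the 10 largest gains and 10 largest losses among abundant genes shifted 1.3 to 2-fold, 1 library per group. Bars mark the control, open circles buffer and filled circles rATB. For 10 of the 10 gains the rATB level lies above both other libraries, and for Cd74 and the H2 genes the buffer level lies between control and rATB.

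Genes of class II antigen presentation were mostly lower with rATB. These genes encode the chains that carry peptides to T helper cells and the proteins that load them, and Ciita is the factor that switches them on. Cd74, the invariant chain that guards the peptide groove, stood at 10811 units in the control, 8533 with buffer and 6059 with rATB, and the buffer level was 1.41 (interval 1.4 to 1.42) times the rATB level. The alpha chain gene H2-Aa stood at 2387 units in the control, 1979 with buffer and 1402 with rATB, a buffer-over-rATB ratio of 1.41 (interval 1.39 to 1.44). The beta chain gene H2-Eb1 stood at 1873 units in the control, 1497 with buffer and 977 with rATB, a ratio of 1.53 (interval 1.5 to 1.56). The order was the same for all 3, with the control highest and rATB lowest. H2-Ab1, the other beta chain, was at 1031, 811 and 543 units, and Ciita at 214, 171 and 106 units. Of 13 measured class II genes, 8 were lower and 0 higher by the 1.3-fold rule, against 8.16% and 7.26% of all genes. The median was -0.44, and that of buffer against control was -0.31. The summed level was 17012 units in the control, 13565 with buffer and 9536 with rATB. Members of the H2 family resemble each other, and reads can be shared between close copies.

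The promoters of H2-Aa and H2-Eb1 are shown because their windows hold the Y box, the inverted CCAAT element at which the factor NF-Y binds class II promoters. Each holds the 200 bases before the start site on the gene's own strand, from RefSeq on GRCm38.p6, with the Y box letters CTGATTGG in capitals. H2-Aa lies at chr17:34287824-34288023 on the minus strand and H2-Eb1 at chr17:34305667-34305866 on the plus strand.
H2-Aa: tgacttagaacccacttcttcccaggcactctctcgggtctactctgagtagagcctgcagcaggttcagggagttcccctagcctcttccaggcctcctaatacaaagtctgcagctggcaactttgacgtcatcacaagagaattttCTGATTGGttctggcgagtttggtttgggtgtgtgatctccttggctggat
H2-Eb1: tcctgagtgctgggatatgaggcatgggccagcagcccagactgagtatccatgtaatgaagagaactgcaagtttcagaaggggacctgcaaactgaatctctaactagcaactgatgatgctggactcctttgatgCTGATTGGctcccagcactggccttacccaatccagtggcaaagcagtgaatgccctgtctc
Searched on both strands in the 250 bases before the start site, these letters were in 1099 of 27025 promoters (4.07%). They were in 3 of the 9 class II promoters in the table, those of H2-Aa, H2-Eb1 and H2-Oa, and H2-Oa itself stood at 18.8, 20.6 and 19.7 units.

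Class I genes show peptides to cytotoxic T cells, and abundant ones among them had more message with rATB than with buffer. B2m, the light chain shared by class I molecules, stood at 1392 units in the control, 1302 with buffer and 1845 with rATB, a ratio of 1.42 (interval 1.39 to 1.44). H2-D1, a heavy chain, stood at 1232, 1151 and 1449 units, and Tapbp, which holds class I molecules at the peptide transporter, at 421, 391 and 459.6 units. In each of these the rATB level was the highest of the 3 libraries, though H2-D1 and Tapbp stayed below 1.3-fold over buffer. Of 20 measured class I genes, 4 were higher and 2 lower by the 1.3-fold rule, against 7.26% and 8.16% of all genes, with a median of 0.23 against 0.01 for buffer against control. H2-M2, a non-classical member, was among the lower, at 48.9, 69.6 and 49.9 units.

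Several other abundant genes of myeloid function shifted moderately. Gpnmb, a membrane glycoprotein of macrophages and dendritic cells, stood at 3268 units in the control, 2583 with buffer and 3902 with rATB, a ratio of 1.51 (interval 1.49 to 1.53). Ccr7, the lymph node homing receptor, stood at 621 units in the control, 723 with buffer and 1252 with rATB, a ratio of 1.73 (interval 1.69 to 1.77). Of 28 measured maturation and B7 family genes, 10 were higher and 5 lower, against 7.26% and 8.16% of all genes, with a median of 0.14. Among them Cd274, the T cell inhibitor PD-L1, stood at 621, 625 and 781 units, below 1.3-fold over buffer. Tnfrsf9, the co-stimulator 4-1BB, stood at 443, 384 and 874 units. Il4i1, chosen after its values were seen, was among the lower, at 489, 569 and 391 units, with buffer the highest. The log2 ratios of the list ran from -1.28 to 2.41. Ifitm1, of an interferon-inducible membrane family with close copies, stood at 874, 783 and 1306 units. Grina, a membrane protein that guards against cell death, stood at 522, 465 and 929.8 units, which is just under 2-fold over buffer. On the lower side, Cybb, the catalytic subunit of the phagocyte NADPH oxidase, stood at 2202 units in the control, 1909 with buffer and 1182 with rATB, and the buffer level was 1.61 (interval 1.59 to 1.64) times the rATB level. The other subunits Cyba and Ncf1 were at 558, 527 and 531 units and at 575, 519 and 530.3 units, within counting error of buffer. Cybb was thus the 1 of 7 oxidase genes past 1.3-fold.

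Lyz2, the lysozyme of myeloid cells, which has a close copy in Lyz1, had the largest loss in units although its ratio was below 1.3. It stood at 36750.4 units in the control, 31597 with buffer and 25149 with rATB, and the buffer level was 1.26 (interval 1.25 to 1.26) times the rATB level. Prkcd, a protein kinase C, stood at 1278, 1219 and 850.2 units, and Flna, the actin crosslinker filamin A, at 1248, 1233 and 947 units. For both of them the control and buffer levels were close and rATB was lower. Lpl, the lipoprotein lipase, and Prdx1, a peroxidase, differed in pattern: they stood at 1314, 1563 and 1191 units and at 1168, 1469 and 1120.3 units, with buffer the highest of the 3 libraries. For these, 1.31-fold between buffer and rATB came with control and rATB levels that were closer together. Mmp12, the macrophage elastase, had a large loss in units at a small ratio, at 5719, 6519 and 5995 units, again with buffer the highest.

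A few abundant genes passed 2-fold. Spp1, the secreted protein osteopontin, stood at 964 units in the control, 1366 with buffer and 2943 with rATB, a ratio of 2.15 (interval 2.12 to 2.19). Ccl22, a chemokine of mature dendritic cells, stood at 1204, 1182 and 2746 units, a ratio of 2.32 (interval 2.28 to 2.36). Arg1, the arginase that breaks down arginine, stood at 663, 626 and 2029 units, a ratio of 3.24 (interval 3.17 to 3.32). For Spp1 buffer was already above the control, whereas for Ccl22 and Arg1 those libraries lay close together. Saa3, an acute-phase serum amyloid, stood at 202, 146 and 540.2 units, and Tnfsf14, the T cell co-stimulator LIGHT, which is not among the abundant genes, at 30.4, 24.1 and 84.7 units. Klk1b11, a tissue kallikrein with near-identical neighbours whose reads may be shared, stood at 1273, 959 and 304 units. Emr4, an adhesion receptor of myeloid cells that is below the abundant level, stood at 134, 119.6 and 28.4 units. Both of these were lowest with rATB.

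Genes of cell division were lower nearly throughout. The list holds cyclins, spindle motors and kinetochore proteins that cells make as they enter mitosis. Mki67, the proliferation antigen, stood at 176 units in the control, 178 with buffer and 128 with rATB, and the buffer level was 1.39 (interval 1.31 to 1.47) times the rATB level. Top2a, which untangles DNA before division, stood at 74.3, 86.1 and 56.2 units, a ratio of 1.53 (interval 1.41 to 1.67). Cenpf, a kinetochore protein, stood at 15.2, 17 and 7.18 units, a ratio of 2.37 (interval 1.9 to 2.97). Kif11, the motor that separates spindle poles, stood at 16.7, 19.9 and 10.2 units, and Birc5, a subunit of the chromosomal passenger complex, at 16.4, 18.8 and 10.3 units. In all 5 the rATB level was the lowest of the 3 libraries and buffer was slightly above the control. Of 30 measured mitosis genes, 28 were lower and 0 higher by the 1.3-fold rule, against 8.16% and 7.26% of all genes. Their log2 ratios ran from -1.25 to 0.04, with a median of -0.62. The exception named by the rule was Cenpa, the centromeric histone, at 44.6, 42.8 and 44 units. Buffer against control had a median of 0.14, and the summed level was 758 units in the control, 812 with buffer and 551 with rATB.

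DNA replication genes were less uniform. Of 38 measured, 12 were lower and 2 higher, against 8.16% and 7.26% of all genes. Their median was -0.15, against 0.15 for buffer over control. Rrm2 and Tk1, which supply deoxynucleotides, stood at 23.2, 32.6 and 18.2 units and at 29.5, 33.2 and 18.8 units, with buffer the highest. Rpa1 and Rfc1, more general factors of replication and repair, stood at 58.5, 64.2 and 57.7 units and at 57.9, 56 and 51.4 units. Of 28 kinesins, 10 were lower and 2 higher. Kif15, a mitotic motor, was among the lower at 11.1, 15.7 and 9.15 units, while Kif3a, a motor of cilia and transport, stood at 27.9, 25.2 and 48.9 units.

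Promoters of 2 mitosis genes, chosen after their values were seen, are shown for the letters TTTGAA. These are the letters of the cell cycle gene homology region, an element at which repressor complexes hold such genes silent outside division. The windows and source are as above, with these letters in capitals. Cdc20, the activator of the anaphase-promoting complex, lies at chr4:118437344-118437543 and Ccnb2, cyclin B2, at chr9:70421555-70421754, each on the minus strand.
Cdc20: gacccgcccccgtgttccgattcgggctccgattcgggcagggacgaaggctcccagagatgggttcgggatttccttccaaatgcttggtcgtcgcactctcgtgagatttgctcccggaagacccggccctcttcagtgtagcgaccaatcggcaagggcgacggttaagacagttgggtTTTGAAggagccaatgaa
Ccnb2: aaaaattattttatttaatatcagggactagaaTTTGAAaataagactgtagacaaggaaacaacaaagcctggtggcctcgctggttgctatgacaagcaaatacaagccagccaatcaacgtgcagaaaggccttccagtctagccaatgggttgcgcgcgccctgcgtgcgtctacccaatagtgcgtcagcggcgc
Cdc20 stood at 15, 14.6 and 8.2 units and Ccnb2 at 20, 19.3 and 12.6 units. Searched on both strands in the 250 bases before the start site, TTTGAA was in 4398 of 27025 promoters (16.3%) and in 9 of the 26 mitosis promoters in the table. A match describes the letters and does not show that the element works there. In Cdc20 it lies close to the start site, and in Ccnb2 near the far end of the window.

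**Figure D4:**
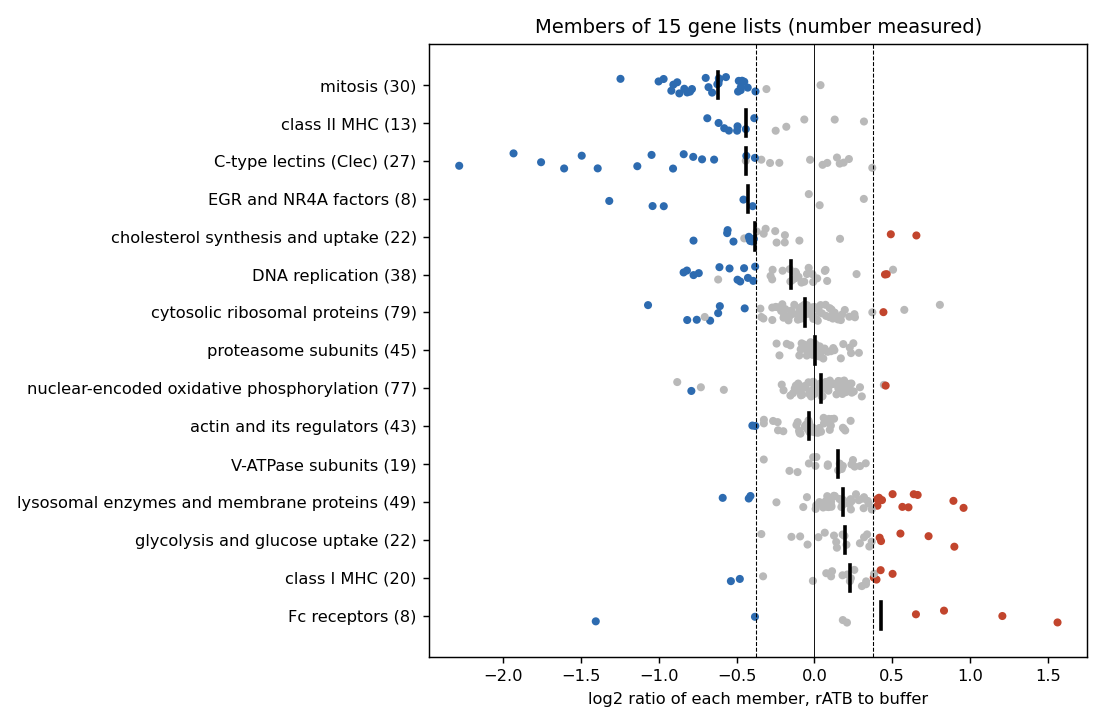
Log2 ratio of rATB to buffer for every measured member of 15 gene lists, with the number measured in brackets. Red and blue points passed 1.3-fold beyond counting error, grey points did not, black bars are medians and dashed lines mark 1.3-fold. Of 30 mitosis genes 28 are blue, and of 45 proteasome genes 0 are coloured.

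Many C-type lectin genes were lower with rATB. C-type lectins are surface receptors with which myeloid cells take up glycoproteins and sense fungi. Asgr2, a subunit of the asialoglycoprotein receptor, stood at 141 units in the control, 102 with buffer and 20.9 with rATB, and the buffer level was 4.87 (interval 4.32 to 5.49) times the rATB level. Clec7a, the beta-glucan receptor dectin-1, stood at 696, 727 and 558 units, a ratio of 1.3 (interval 1.27 to 1.34). Clec12a, an inhibitory receptor, stood at 39.2, 46 and 13.6 units, and Cd209a, a lectin of the DC-SIGN family, at 36.2, 25 and 8.2 units. Clec4n, dectin-2, stood at 1995, 2210.0 and 1814 units and Clec4d at 356, 359 and 380.4 units, both within 1.3-fold of buffer. Of 27 measured lectin genes, 15 were lower and 0 higher by the 1.3-fold rule, against 8.16% and 7.26% of all genes, with a median of -0.44 against 0.05 for buffer against control. Galectins, another family that binds sugars, listed together with Lgals3bp, had a median of 0.23, with 2 of 6 higher and 0 lower, and Lgals3bp, a protein that binds a galectin, stood at 409, 338 and 543 units. Clec4 genes are close copies, so their individual values are uncertain. Macrophage or monocyte markers moved in the same direction: of 10 measured, 5 were lower and 0 higher. C1qa stood at 386, 258 and 134 units, Ccr2 at 589.7, 544 and 229 units and Csf1r at 2781, 2176 and 2028 units. Their part in the lower lectin and class II levels was not tested.

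Other receptor families went in different directions, and their counts are to be read against 7.26% higher and 8.16% lower over all genes. Fc receptors bind antibody-coated particles, and of 8 measured 4 were higher and 2 lower, with a median of 0.43 against -0.31 for buffer against control. Fcgr3, an activating receptor, stood at 623, 568 and 894 units, a ratio to buffer of 1.57 (interval 1.53 to 1.61). Fcgr2b, the inhibitory receptor, stood at 354, 297 and 529 units, a ratio of 1.78 (interval 1.72 to 1.84), so activating and inhibitory members were both highest with rATB. Fcgr4 was at 26.9, 15.8 and 46.5 units, and Fcrls was lower, at 42.1, 28.3 and 10.7 units. Of 24 leukocyte immunoglobulin-like and paired receptors, 10 were lower and 5 higher. Sirpa, which receives the CD47 signal, stood at 1547, 1325 and 1163 units, and Lilra5 at 70, 67.2 and 33.2 units. Of 6 Siglecs, sialic acid receptors, 2 were lower, among them Cd33 at 181, 180.2 and 138 units.

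Transcription factor families also split, beside shares of 7.26% higher and 8.16% lower over all genes. EGR and NR4A factors are made within minutes of receptor signals, and 5 of 8 measured members and cofactors were lower and 0 higher, with a median of -0.43. Egr2 stood at 398, 419.9 and 204 units, a buffer-over-rATB ratio of 2.06 (interval 1.97 to 2.14). Egr1 stood at 337, 348 and 264 units and Nr4a3 at 519, 655 and 477 units. Of 11 Kruppel-like factors, 4 were lower, with a median of -0.27, and Klf2 and Klf4 stood at 35.5, 29.4 and 15.2 units and at 21.3, 16.6 and 9.91 units. STAT factors, which carry cytokine signals, had a median of 0.23, with 2 of 7 higher and 0 lower. Stat3 stood at 283, 271 and 397 units, a ratio of 1.46 (interval 1.41 to 1.52), and Stat4 at 55.2, 62 and 127 units. Irf8, a factor of dendritic cell lineages, stood at 384, 378 and 566 units, highest with rATB. Of 18 NF-kB subunits and inhibitors, 0 were higher and 3 lower. Nfkbia, the inhibitor IkB-alpha, stood at 374, 354 and 275 units, and Nfkbiz at 47.8, 41.5 and 23.7 units.

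Metabolic lists shifted in separate ways. Genes of cholesterol synthesis and uptake had a median of -0.38, with 10 of 22 lower and 2 higher, against 8.16% and 7.26% of all genes. Srebf2, the transcription factor that drives the pathway, stood at 260.5, 224 and 173 units, a buffer-over-rATB ratio of 1.29 (interval 1.23 to 1.36). Hsd17b7, an enzyme of the later steps, stood at 17.3, 15.8 and 10.7 units, a ratio of 1.48 (interval 1.21 to 1.8). For both the control was highest and rATB lowest. Pmvk, a kinase of the mevalonate steps, was among the higher, at 39.1, 36.5 and 57.5 units. Fasn, the fatty acid synthase, stood at 169, 148 and 84.3 units, while Scd2, a desaturase, stood at 758, 603 and 594 units. Abca1, which exports cholesterol, stood at 583, 567 and 780.3 units and so was higher, and Cd36, a scavenger receptor for lipids, at 611, 729.8 and 467 units and so was lower. Apoe stood at 725, 375 and 579.6 units, with the control the highest.

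Summed over its genes, glycolysis was higher with rATB than with buffer but not than in the control. Of 22 measured genes, 5 were higher and 0 lower with rATB, against 7.26% and 8.16% of all genes, with a median of 0.20. Buffer against control had a median of -0.36, with 11 genes lower. The summed level was 6026 units in the control, 4642 with buffer and 5420.1 with rATB, so rATB lay between the other libraries. Aldoa, an aldolase, stood at 1386, 1108 and 1225 units, and Ldha, which makes lactate, at 723, 568 and 649.7 units. Pfkfb3, which sets the pace of glycolysis, was above both, at 154, 137 and 227 units.

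Mitochondrial genes were followed by the genome that encodes them. The 7 measured messages of the mitochondrial genome had a median of -0.20, and 7 of 7 were lower beyond counting error, of which 1 passed 1.3-fold. That gene was mt-Nd2, at 744, 833 and 634 units, and mt-Co1 stood at 9682, 9845 and 9092 units. Their summed level was 19447 units in the control, 20122 with buffer and 17781 with rATB. The 77 nuclear genes of oxidative phosphorylation had a median of 0.04, with 1 higher and 1 lower by 1.3-fold, and 22 higher and 4 lower at any size. The difference between these lists was not tested. Over all genes 19.7% were higher and 20% lower at any size, and 7.26% and 8.16% by 1.3-fold. Atp5b, a subunit of ATP synthase, stood at 798, 733 and 727 units.

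Genes of the oxidant response were more often lower than higher, mostly by less than 1.3-fold. Nfe2l2, the factor Nrf2 itself, stood at 569.6, 552 and 354 units, a buffer-over-rATB ratio of 1.56 (interval 1.51 to 1.61). Nqo1, one of its targets, stood at 20.8, 21.7 and 14 units, whereas Hmox1 was higher, as given above. Of 28 genes, 6 were lower and 2 higher by the 1.3-fold rule, against 8.16% and 7.26% of all genes. At any size beyond counting error 17 were lower and 5 higher, against 20% and 19.7% of all genes, with a median of -0.11. Both measured metallothioneins, which bind zinc and copper, were higher: Mt1 stood at 115, 98.7 and 166 units, a ratio of 1.68 (interval 1.58 to 1.79), and Mt2 at 25.5, 22.1 and 60.4 units, a ratio of 2.74 (interval 2.43 to 3.09). Of 13 glutathione S-transferases, 3 were higher and 0 lower. Of 13 serpins, protease inhibitors, 5 were higher and 1 was lower.

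Secreted signals had members in both directions, where 7.26% of all genes were higher and 8.16% lower. Of 20 chemokines, 9 were higher and 5 lower, with a median of 0.12 and a summed level of 11508 units in the control, 11654 with buffer and 16074 with rATB. Ccl6 and Ccl9, macrophage chemokines, stood at 5837, 5710.1 and 6621 units and at 1751, 1888 and 1831 units, below 1.3-fold. Ccl5 stood at 171, 200.1 and 1062 units, a ratio of 5.31 (interval 5.11 to 5.51), and Ppbp, a platelet chemokine precursor, at 154, 207 and 687 units. Pf4, another platelet chemokine, stood at 485, 444 and 815 units. The platelet markers other than Pf4 were low, since Itga2b stood at 10.6, 12 and 9.85 units and Gp1ba at 2.03, 1.7 and 2.22 units, and Gp9 and Gp1bb had at most 0.0636 units. The whole list of 5 summed to 498, 457 and 827 units. Cxcr4 and Ccr1, chemokine receptors, stood at 60.9, 58.3 and 112 units and at 461, 422 and 513 units. Il4ra, the interleukin-4 receptor, stood at 158, 146 and 313 units, a ratio of 2.15 (interval 2.04 to 2.25). Of 29 TNF superfamily members, 7 were higher and 4 lower. Sphk1, which makes sphingosine phosphate, stood at 15.2, 12.7 and 55.2 units. Among ribonucleases of the RNase A superfamily, 3 of 4 were lower, and the Ear members among them are close copies whose reads cannot be assigned with certainty. The family was already lower with buffer than in the control, with a median of -0.46 and 3 members lower by 1.3-fold. Its summed level was 186 units in the control, 124 with buffer and 51.4 with rATB. Rnase4 was the member that was higher, at 13.2, 9.08 and 16.5 units.

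Several large families had medians close to that of all genes. None of 45 proteasome subunits passed 1.3-fold in either direction, and their median was 0.00. Of 59 translation initiation factors, 1 was lower, and of 43 actin genes 2 were lower. Of 79 ribosomal protein genes, 7 were lower and 1 higher, against 8.16% and 7.26% of all genes, with a median of -0.06, and the shifted members include low ones that have many pseudogenes. Rpl4 and Rps3, proteins of the large and small subunit, stood at 858, 826 and 792 units and at 656, 634 and 641 units. Actb stood at 4378, 4195 and 4044 units and Hsp90ab1, a chaperone, at 1421, 1334 and 1306 units. Solute carriers, a family of transporters, had 16 higher and 17 lower of 186, with a median of 0.03. Zinc finger genes of the Zfp series had 6 higher and 27 lower of 282, with a median of -0.06. The counts of solute carriers and of lower Zfp genes were near the shares over all genes. Across the 97 lists, 9 had a median at least 0.2 above that of all genes, 9 at least 0.2 below, and 79 neither. For buffer against control the numbers were 1, 5 and 91. The lists were chosen with earlier results of these data known, so the 2 sets of numbers cannot be weighed against each other. Some shifted lists hold few measured genes, such as the metallothioneins with 2 and the Siglecs with 6.

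**Figure D5:**
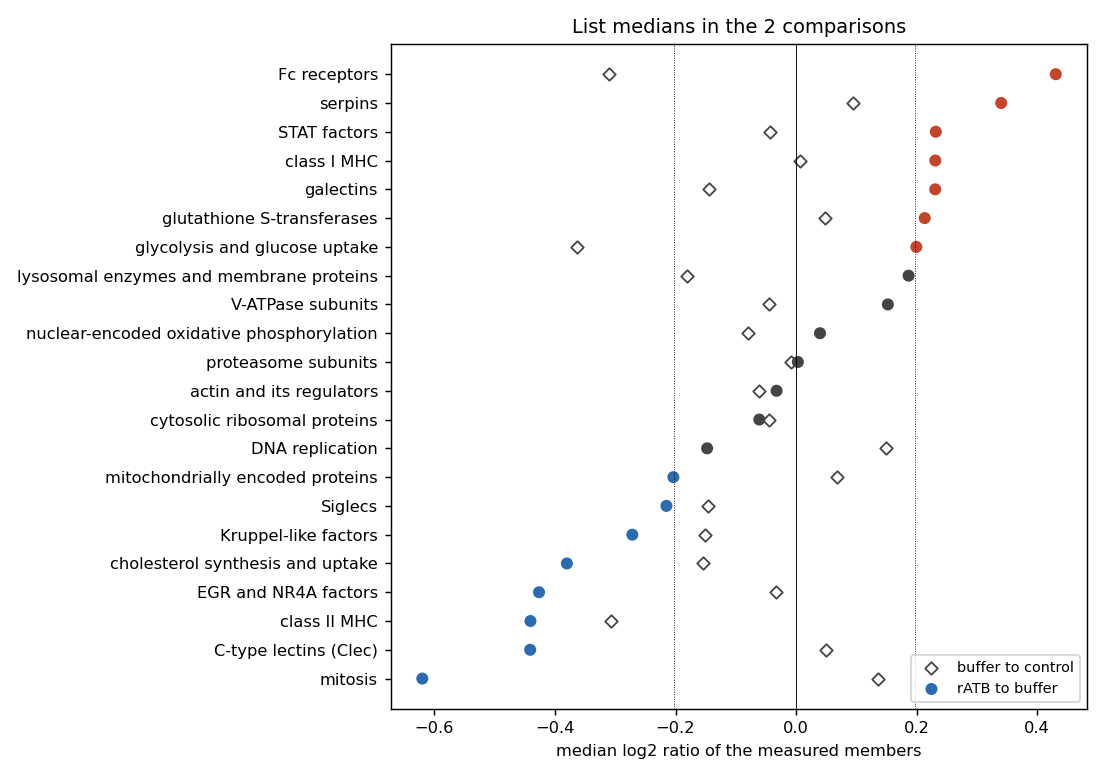
Median log2 ratio of the measured members of 22 gene lists, for rATB to buffer (filled circles) and buffer to control (open diamonds), which share the buffer library. Red and blue circles lie at least 0.2 above or below the all-gene median (dotted lines). The lists are the 15 whose members are plotted by gene and the other shifted lists of at least 5 measured genes, so the ribonuclease A superfamily (4 genes, median -1.56) is not drawn. Mitosis lies at -0.62 with a diamond at 0.14, and class II MHC lies at -0.44 with a diamond at -0.31.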

How the data were processed

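Libraries were made from TRIzol-extracted total RNA with the TruSeq RNA version 2 kit, which does not mark strand, and sequenced in 150-bp pairs (HiSeq2500), per the labels' protocols. Reads were aligned with TopHat2 2.0.13, per the submitters' processing notes, which name build GRCh37; that is a human build, the identifiers are mouse ones, so the build is unclear and no coordinates were taken from the files. Not given in the sources used here were the read counter, the annotation and the scaling. The authors deposited log2 values, 1 column per library per the file headers, with a spreadsheet error in place of the log2 of 0. On the linear scale 100% of values above 0 were whole multiples of the smallest in their column, within a tolerance of 1e-06, and were read as read counts times a factor (1 for the control, 1.04 for buffer, 1.13 for rATB), which was kept. The deposited values thus give 17.8, 17.1 and 15.7 reads per unit, and a count of 0 allows up to 0.169, 0.176 and 0.191 units (3 counts).

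Spreadsheet-damaged symbols (25) were restored from identifiers, and the 37991 gene lines were summed by symbol. Intervals were computed with scipy 1.17.1 and checked on data simulated with counting error alone. That check could not cover PCR copies or variation between libraries. Genes named were, among those of at least 100 units, the 10 largest gains and losses in units overall and within 1.3 to 2-fold; of at least 20 units, the 5 highest and lowest ratios; up to 6 members of each list of at least 10 units (3 most abundant, 3 with the largest ratio); and all markers. The 97 lists (70 symbol patterns and 27 hand lists), members and rules were chosen with earlier results of these data known. Alternatives were other scalings, filters, a pseudocount and other abundance limits. Some genes named by these rules are not reported here.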

Additional observations from a re-analysis of the deposited data

How the results depend on the processing

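No paired analysis was possible because each group held 1 library. For rATB against buffer, the counts by the 1.3-fold rule stayed within 1.5 times under every alternative tried. The 203 genes at least 2-fold higher became 89 with a filter at 5 units, 305 with no filter and 116 with a pseudocount of 1, and the 182 lower genes became 75, 280 and 83. The 134 higher and 104 lower abundant genes at 1.3 to 2-fold became 222 and 177 from 50 units, and 70 and 45 from 200 units. For buffer against control, scaling each library to its own total gave 365 higher and 209 lower genes by the 1.3-fold rule, 47 higher at 2-fold, and 13 higher and 17 lower abundant genes. Median of ratios scaling gave 339, 234, 45, 11 and 19 in the same order. A filter at 5 units gave 113 higher by 1.3-fold, and 1 higher and 6 lower by 2-fold. No filter gave 71 and 95 at 2-fold, and a pseudocount of 1 gave 0 and 7. Abundance from 50 units gave 8 higher and 56 lower, and from 200 units 19 lower. The median log2 ratio of the serpins turned from 0.34 to -0.20 with no filter. Of 97 list medians, 6 others moved with no filter, 5 with members from 10 units and 4 with a filter at 5 units. With each library scaled to its own total, 58 of 670 single-gene values moved and none reversed. Low read counts give low genes wider intervals. Among genes of 1 to 5 units, 50.6% lay within 1.3-fold of buffer, against 86.8% of abundant genes; for buffer against control the shares were 65.6% and 98.2%. The cause of these changes was not tested.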

Other observations

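H2-Ea-ps, which the annotation lists as a pseudogene of the class II alpha chain H2-Ea, was among the largest losses, at 2716 units in the control, 2426 with buffer and 1537 with rATB. The labels used here give no strain. Its buffer level was 1.58 (interval 1.55 to 1.6) times the rATB level. Among genes of the complement system, C1s, a protease of the classical pathway, stood at 26.9, 33.8 and 83.8 units in the control, buffer and rATB libraries, while C1qa and C1qb, subunits of its recognition protein, stood at 386, 258 and 134 units and at 289, 170.4 and 96.9 units. Slc7a2, an arginine transporter, stood at 147, 132 and 344 units, and Slc2a6, a sugar transporter of the lysosome, at 264, 226 and 104 units. Ptpn22 and Ptpro, tyrosine phosphatases, stood at 18.8, 19.1 and 6.42 units and at 73.9, 59.1 and 27.9 units. Bnip3, a mitophagy receptor, stood at 59.6, 31.1 and 57.3 units, so control and rATB lay together above buffer.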
